A study of Mus musculus with 6 samples.

Results

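The genes described here carry ions, bicarbonate and water across the epithelium of the large bowel: the carbonic anhydrases Car1, Car2 and Car4, the water channel Aqp8, the exchangers Slc26a3 and Slc9a3, the sodium channel subunit Scnn1a, the proton pump subunit Atp12a, the bicarbonate cotransporter Slc4a4 and the chloride channel Cftr. They were chosen by gene symbol from the array's annotation, which held probes for 8 of the 10 genes, 10 probes in all, out of 16593 genes named on the array. It listed no probe for Car1 or Slc9a3, which were not analysed here. A probe counted as detected where its signal exceeded the array's negative controls at a detection p-value under 0.05, and it was tested if detected on at least 3 arrays. This kept 7 probes of 5 genes, and Slc26a3, Atp12a and Slc4a4 had no probe tested.

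Each of 3 HBUS mice gave a serrated polyp (SP) and the normal distal cecum surrounding it, and RNA from CD45-enriched cells of each was hybridised to 1 Illumina mouse array. HBUS mice are known from the study of this strain to carry transgenes for the EGF receptor ligand HB-EGF and for a chemokine receptor of cytomegalovirus in the gut epithelium. Polyp and surrounding samples share these transgenes, and no mouse without them was among the samples. The surface protein CD45 marks leukocytes, and epithelial cells had been shaken off with EDTA before the tissue was digested. Age, sex and the purity of the enriched cells are not given in the sources used here. The arrays had median scanner intensities of 97.3 to 109.3, and 49.3% (polyp, mouse 3) to 53.7% (surrounding, mouse 3) of the 25697 probes were detected.

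The large bowel takes up sodium chloride and water from its contents and secretes bicarbonate. At the luminal face of surface colonocytes, Slc9a3 takes in sodium in exchange for protons and Slc26a3 takes in chloride in exchange for bicarbonate, and carbonic anhydrases supply both protons and bicarbonate from carbon dioxide. In the distal bowel the epithelial sodium channel takes up further sodium under the control of aldosterone, while Cftr lets chloride out in the crypts.

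Car4 and Aqp8 fell in polyp samples, and no other tested member passed the test. Car4, an anhydrase anchored to the outer face of the plasma membrane, was 4.61-fold lower in polyp than in surrounding samples. Aqp8, a water channel of surface colonocytes, was 2.54-fold and 2.62-fold lower on its 2 probes. Of the 7 member probes tested, 3 were lower and 0 higher at an adjusted p under 0.05 (limma with mouse as a term), where 10.4% of all 13409 tested probes were called, 5.81% lower and 4.62% higher. The median change of the 7 probes was -0.47 on the log2 scale, against 0.02 for all tested probes. The members were chosen with results of these samples known, so these counts are a description.

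Car4 (probe ILMN_2655795) had scanner intensities of 180.2, 199.9 and 198.6 in polyps from mice 1, 2 and 3. In the surrounding samples of the same mice it had 520.8, 919.6 and 617.5. After background correction and normalisation its log2 intensities were 6.78, 6.67 and 7.34 in polyp and 8.77, 9.69 and 8.94 in surrounding samples. Every polyp sample thus lay below every surrounding sample. Within mice it differed by -1.99, -3.03 and -1.60 log2, most in mouse 2. The change was -2.21 ± 0.26 (SE, n = 3 pairs, limma adjusted p = 0.00723), and its 95% interval ran from 2.97-fold to 7.16-fold lower. The size depended on the background that was subtracted: in the authors' processed values, which hold no subtraction, the change was -1.67 (limma adjusted p = 0.0129).

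Aqp8 was read by 2 probes, which moved alike. The probe ILMN_2756379 had scanner intensities of 1781.6, 1791.7 and 1100.4 in polyp and 4692.4, 4645.3 and 2899.6 in surrounding samples of mice 1, 2 and 3. On the log2 scale its normalised intensities were 10.83, 10.51 and 10.29 against 12.20, 12.12 and 11.35. The polyp samples again lay wholly below the surrounding ones, and mouse 3 was the lowest of each group. The change was -1.34 ± 0.13 (SE, n = 3 pairs, limma adjusted p = 0.00387). The probe ILMN_2854157 read 10.63, 10.50 and 10.28 in polyp and 11.95, 12.20 and 11.44 in surrounding samples, a change of -1.39 ± 0.13 (SE, n = 3 pairs, limma adjusted p = 0.00357). Both probes, like Car4, differed most in mouse 2 and least in mouse 3. Without the mouse term the first probe missed the threshold (limma adjusted p = 0.0511) and the second passed (limma adjusted p = 0.0263).

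**Figure D1:**
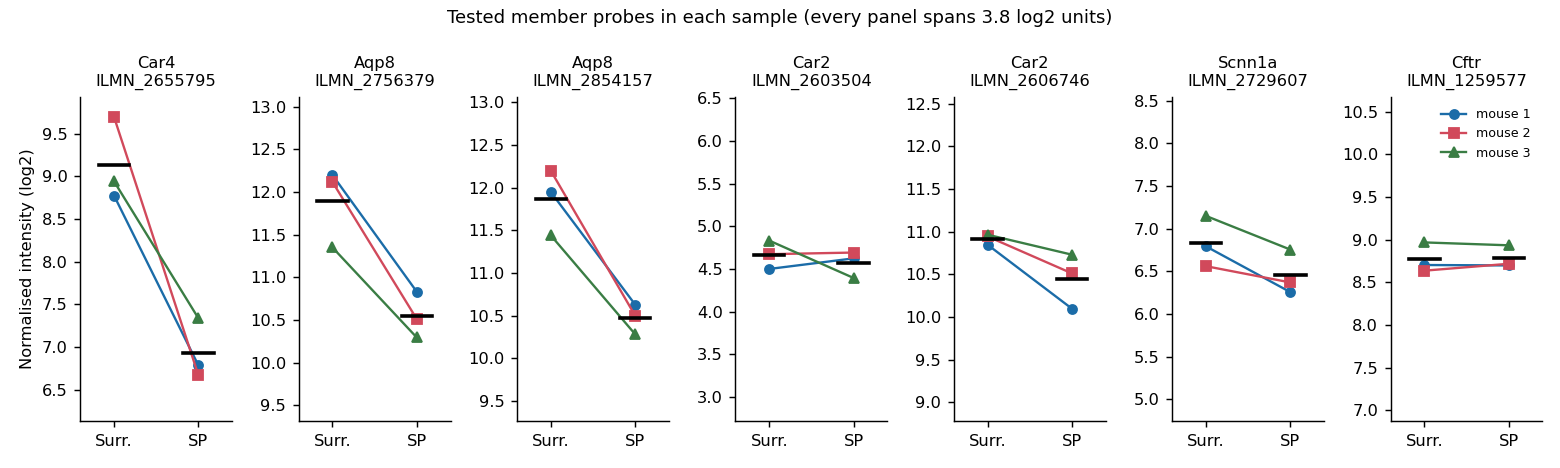
Normalised log2 intensity of the 7 tested member probes in each sample, with 1 line per mouse from its surrounding (Surr.) to its polyp (SP) sample and a black bar at each group mean. Car4 and both Aqp8 probes fall in all 3 mice with no overlap of the groups, and Cftr is nearly level.

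The promoters of Car4 and Aqp8 are shown because both genes were lower in the polyp sample in all 3 mice. Each line gives the 250 bases before the RefSeq transcript start in GRCm38.p6, on the plus strand, at chr11:84957504-84957753 for Car4 and chr7:123462044-123462293 for Aqp8. Capitals mark TTTAT, the core of sites bound by CDX factors of gut epithelium, searched on both strands.
Car4: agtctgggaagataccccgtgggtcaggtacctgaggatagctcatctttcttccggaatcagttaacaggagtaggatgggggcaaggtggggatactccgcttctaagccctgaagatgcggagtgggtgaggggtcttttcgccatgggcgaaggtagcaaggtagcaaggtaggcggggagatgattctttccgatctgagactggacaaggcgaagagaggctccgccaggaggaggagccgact
Aqp8: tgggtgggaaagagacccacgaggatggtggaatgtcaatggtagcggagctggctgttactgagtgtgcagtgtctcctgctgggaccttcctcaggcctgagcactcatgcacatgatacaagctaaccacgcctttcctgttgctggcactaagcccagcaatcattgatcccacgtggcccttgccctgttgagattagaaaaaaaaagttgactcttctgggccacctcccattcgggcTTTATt
Aqp8 held 1 such match, starting at position -6 counted from the transcript start, and Car4 held 0. Among all 32851 promoter windows of this length, 37.3% held TTTAT on either strand, and 25.5% of the 9669 windows of tested genes did. Also searched on both strands were CAAAGTC, a core bound by HNF4 factors (3.84% of all windows and 3.48% of those of tested genes), GTTAAT, a half-site of HNF1 factors (6.43% and 4.27%), and TATAAA, the core promoter element named for these letters (12.4% and 7.23%), which contains the reverse complement of TTTAT. None of these 3 was found in the Car4 or Aqp8 window. The table held 7 windows of 6 member genes, and beside Aqp8 only that of Slc26a3 had a match, to every motif but CAAAGTC.

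Car2, a cytosolic anhydrase of colonocytes that is also abundant in red blood cells and their precursors, was read by a bright and a dim probe. The bright probe ILMN_2606746 had log2 intensities of 10.10, 10.51 and 10.73 in polyp and 10.85, 10.95 and 10.97 in surrounding samples of mice 1, 2 and 3. The groups did not overlap, and the value was lower in each polyp sample than in its partner. The change of -0.47 ± 0.12 (SE, n = 3 pairs) did not pass the test over all probes (limma adjusted p = 0.0661, 95% interval from -0.77 to -0.17). It passed in 4 of 13 alternatives, among them the authors' processed values (-0.45, limma adjusted p = 0.046). The dim probe ILMN_2603504 had scanner intensities of 93.4 to 109.9, was detected on 3 of the 6 arrays and changed by -0.10 ± 0.13 (limma adjusted p = 0.676). With the bright Car2 probe, 4 of the 7 member probes were lower in every polyp sample than in any surrounding one, where 8.64% of all tested probes were, and 0 were higher in every polyp sample, where 10.6% of all were.

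Scnn1a, the pore-forming alpha subunit of the epithelial sodium channel, had log2 intensities of 6.26, 6.37 and 6.76 in polyps from mice 1, 2 and 3. In surrounding samples it had 6.79, 6.56 and 7.15. Each polyp sample was lower than its own partner, but the groups overlapped. The change of -0.37 ± 0.10 (SE, n = 3 pairs) did not pass (limma adjusted p = 0.0802, 95% interval from -0.63 to -0.12). Cyclic loess normalisation alone of the 13 alternatives brought it just past the threshold (limma adjusted p = 0.0497). The other chains of the channel, Scnn1b and Scnn1g, were each detected on 1 array and were not tested.

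Cftr, the chloride channel through which crypt cells secrete fluid, had log2 intensities of 8.70, 8.72 and 8.93 in polyp and 8.70, 8.64 and 8.97 in surrounding samples. The groups overlapped, and the sign differed between mice. The change was 0.01 ± 0.09 (SE, n = 3 pairs, limma adjusted p = 0.939), with a 95% interval from -0.20 to 0.23, and its sign turned under cyclic loess (-0.04) and median scaling (-0.06). Cftr was detected on all 6 arrays, with scanner intensities of 456.5 to 627.3.

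The remaining member probes lay near background. Slc26a3, whose loss in people causes congenital chloride diarrhoea, had scanner intensities of 90.0, 99.4 and 88.8 in polyp and 100.8, 98.8 and 100.9 in surrounding samples. Its probe (ILMN_2746346) was detected on 0 arrays, with the lowest detection p-value, 0.1, in the surrounding sample of mouse 3. Atp12a, the catalytic subunit of the colonic proton-potassium pump, was detected on 1 array, the polyp sample of mouse 1 (probe ILMN_1228582, intensity 103.3, detection p-value 0.03). Slc4a4, which carries sodium and bicarbonate across the basolateral membrane, was detected on 1 array, the surrounding sample of mouse 3 (probe ILMN_1221628, intensity 104.3, detection p-value 0.04). A probe below background bounds its own signal and does not show that the transcript is absent.

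**Figure D2:**
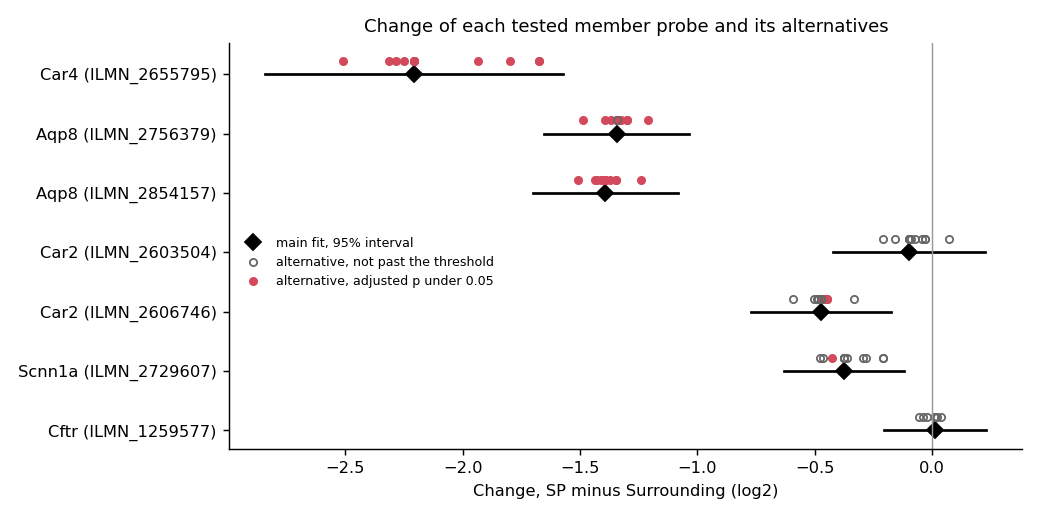
Change of each tested member probe, SP minus Surrounding, on the log2 scale: the diamond is the limma estimate with its 95% interval, and dots above it are the alternative settings, filled where the adjusted p was under 0.05. Car4 is filled throughout, Aqp8 in all but 1 setting of 1 probe, and Cftr lies around 0 with no filled dot.

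The samples were selected for leukocytes, but epithelial genes were detected on every array, so markers of the cells the samples could hold were read beside the members. In these bulk samples, fewer cells of a type and less RNA per cell cannot be told apart. Of 13 tested epithelial markers, all detected on all 6 arrays, 3 rose and 0 fell, where by gene 5.0% of 9246 tested genes rose and 6.46% fell. Krt19 and Krt18, keratins of simple epithelia, rose by 0.60 ± 0.09 and 0.51 ± 0.10 and the epithelial transcription factor Elf3 by 0.50 ± 0.10 (SEs over 3 pairs; limma adjusted p = 0.0168, 0.0327 and 0.0282). These 3 calls were lost without mouse 2, without mouse 3 or without the mouse term. Those of Krt18 and Elf3 were also lost with median scaling, and that of Krt18 with no filter and without mouse 1. The list median was 0.26 and ran from 0.21 to 0.26 over the alternatives. The summed normalised intensity of the list was 51685 to 53087 in polyp and 43480 to 46684 in surrounding samples. Within mice 1, 2 and 3 the median difference of the list was 0.34, 0.25 and 0.17. The part of epithelial content in the changes of Car4 and Aqp8 was not tested. Epcam and Phgr1 were not among the named probes.

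Of 8 tested markers of surface colonocytes, 1 fell, 0 rose and 7 did not pass, with a list median of -0.04. Cyp2c55, a cytochrome P450 of the large bowel, fell by 1.11 on the log2 scale (SE 0.09, n = 3 pairs, limma adjusted p = 0.00295). It read 11.84, 11.44 and 11.25 in polyp samples and 12.87, 12.55 and 12.44 in surrounding samples of mice 1, 2 and 3, with no overlap, and it passed in all 13 alternatives. Krt20, the keratin of the uppermost cells, changed by -0.05 ± 0.10 (limma adjusted p = 0.783), with a 95% interval from -0.31 to 0.20. The summed intensity of the list was 23631 to 24949 in polyp and 27554 to 28024 in surrounding samples. These sums include Cyp2c55, a bright gene and the only one that passed, so they do not show a fall of the other 7 markers.

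All 7 leukocyte markers fell, with a median of -0.83. Ptprc, which encodes CD45, passed as lower (n = 3 pairs, limma adjusted p = 0.0052). Its scanner intensities were 106.8, 130.3 and 94.7 in polyp and 142.8, 157.7 and 132.1 in surrounding samples of mice 1, 2 and 3. The polyp sample of mouse 3 was not detected (detection p-value 0.13), so no exact change of Ptprc is given. Without the mouse term 0 of the 7 passed, and 4 and 3 passed without mice 2 and 3. Their summed intensity was 8096 to 13274 in polyp and 15255 to 20288 in surrounding samples. Leukocyte markers thus fell in the same samples as Car4 and Aqp8. The part of leukocyte content in the changes of Car4 and Aqp8 was not tested.

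Of 8 endothelial markers, 8 rose, with a median of 0.81 and a summed intensity of 3290 to 4241 in polyp against 1851 to 2164 in surrounding samples. Without the mouse term 2 passed, and 3 passed without mouse 2 and 5 without mouse 3. Egfl7, a secreted vessel protein, rose by 1.24 ± 0.17 and Emcn, a surface mucin of endothelium, by 0.99 ± 0.10 (SEs over 3 pairs; limma adjusted p = 0.0118 and 0.00419). Car4 is also known from capillary endothelium, and the part of endothelial content in its signal was not tested. Of 3 erythroid markers, 0 passed: the globin gene Hba-a1 changed by 0.00 ± 0.26 and Alas2, which starts haem synthesis, by 0.06 ± 0.17 (limma adjusted p = 0.994 and 0.861). The third, Slc4a1, had scanner intensities of 99.7 to 126.2, near background. It was lower in each polyp sample than in its partner and did not pass (limma adjusted p = 0.0557). Under cyclic loess, and with a detection p-value under 0.01 required, 1 of the 3 passed as lower. Without mouse 1, Hba-a1 passed as higher in polyp samples (0.426, limma adjusted p = 0.0473), and the bright Car2 probe changed by -0.33 (limma adjusted p = 0.113). Their part in the Car2 signal was not tested.

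Of 6 tested markers of small-intestinal enterocytes, 3 rose, and 4 of 6 smooth muscle, 2 of 7 goblet cell and 1 of 8 fibroblast markers fell. Of the 12 enterocyte genes listed, Fabp2, Apoa4, Apob, Lct, Alpi and Mttp were not tested. Apoa1, Slc5a1 and Anpep did not pass (limma adjusted p = 0.119, 0.293 and 0.737), and the sign of Anpep differed between mice. The 5 other goblet cell markers did not pass. Spink4, Agr2 and Spdef changed by 0.26, 0.25 and 0.20, and Tff3 and Retnlb by -0.37 and -0.17. Of 4 enteroendocrine markers 0 passed, with Pyy at -0.51 ± 0.12 (limma adjusted p = 0.0544). Treh, the trehalase of the brush border, rose by 1.18 ± 0.15 and Fabp6, the ileal bile acid binding protein, by 2.65 ± 0.37 (SEs over 3 pairs; limma adjusted p = 0.00967 and 0.0122). In surrounding samples of mice 1, 2 and 3, Fabp6 had scanner intensities of 117.6, 110.7 and 115.0, near background. The size of the rise depended on the background subtracted. The enterocyte list median was 1.60 in the main fit and 0.74 in the authors' processed values, which hold no subtraction. The disaccharidase gene Sis passed as higher (limma adjusted p = 0.00332), with scanner intensities of 527.4, 350.6 and 197.7 in polyp and 99.4, 98.8 and 104.0 in surrounding samples. It was detected on 3 polyp arrays but only 1 surrounding array, so no exact change is given, and it was not tested where detection on all 6 arrays was required. Zg16, a goblet cell lectin, fell by 0.52 on the log2 scale (SE 0.12), Thy1, a surface protein of fibroblasts and T cells, by 1.04 (SE 0.11), and the muscle actin Actg2 by 2.06 (SE 0.17; limma adjusted p = 0.0448, 0.00544 and 0.00295). Without the mouse term 1 enterocyte, 1 smooth muscle, 0 goblet cell and 0 fibroblast markers passed, those being Sis and Actg2. The Zg16 call was also lost without each mouse in turn and with no filter, that of Treh without mouse 3, and that of Fabp6 with a trended, robust prior.

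**Figure D3:**
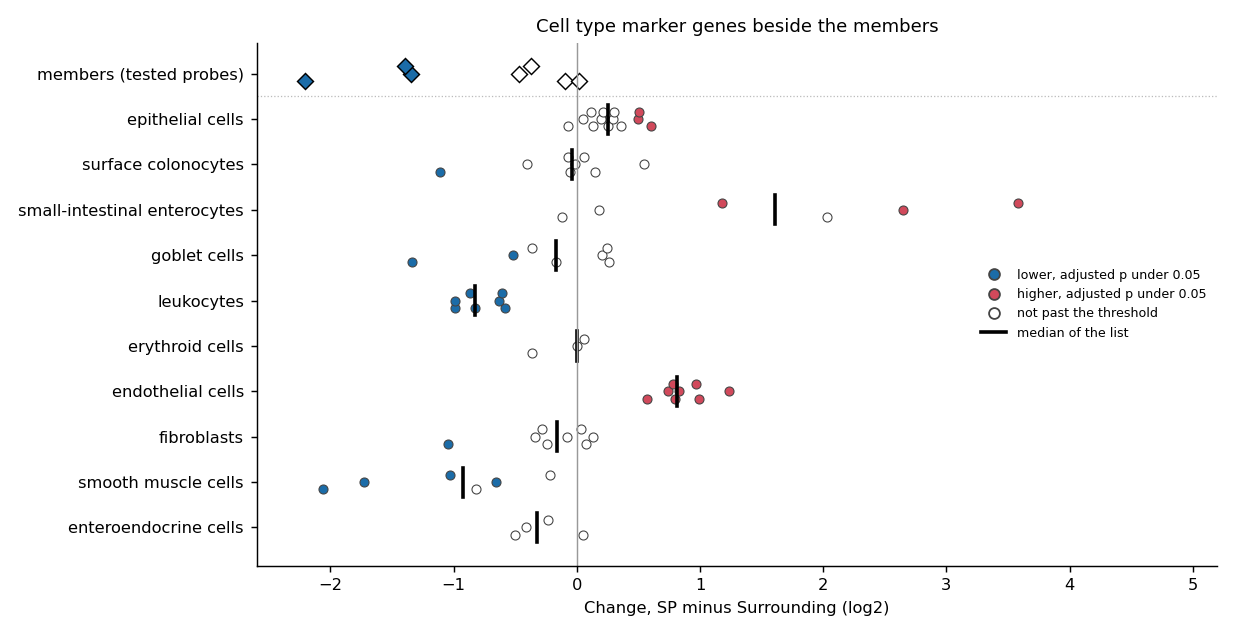
Change (SP minus Surrounding, log2) of every tested marker gene by list, with the tested member probes as diamonds in the top line. Bars are list medians, and blue marks genes lower and red genes higher at an adjusted p under 0.05. The epithelial and endothelial medians lie to the right of 0, and the leukocyte and smooth muscle medians to the left.

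Other transport genes passed in both directions. Of 120 other transport and control genes listed, 60 could be tested, of which 6 fell and 9 rose, with a median of -0.04 against 0.02 over all tested genes. Since 11.5% of all tested genes changed, 15 of 60 lies above that share, but most of these calls depended on the settings. Without the mouse term 1 of the 15 calls was kept, that of Tsc22d3. Without mouse 2, 3 were kept (Tsc22d3, Clca1 and Guca2b), and without mouse 3, 2 (Tsc22d3 and Clca1). With arrays scaled to their medians 7 genes fell and 1 rose, so that 12.5% of the calls were rises, against 60.0%.

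Among the relatives of Car4 and Aqp8, no tested gene passed as lower. Of 5 other tested carbonic anhydrases, 1 rose and 0 fell: Car9, the membrane anhydrase induced by low oxygen, rose by 0.42 ± 0.09 (SE, n = 3 pairs, limma adjusted p = 0.0401). Its groups overlapped, and the call was lost with median scaling, with cyclic loess, without each mouse in turn and without the mouse term. Car13, a cytosolic anhydrase, changed by -0.04 ± 0.13 (limma adjusted p = 0.881). Of 5 other aquaporins, 3 rose and 0 fell: Aqp4, a water channel of basolateral membranes, by 0.54 ± 0.09, Aqp1, a water channel of endothelium and red cells, by 0.47 ± 0.10, and the intracellular Aqp11 by 0.45 ± 0.09 (limma adjusted p = 0.0199, 0.0359 and 0.0316). Aqp4 read 7.63, 7.83 and 7.77 in polyp and 7.0, 7.29 and 7.31 in surrounding samples. These aquaporin values stayed above 0 in all alternatives, but the 3 calls were lost with median scaling, without mouse 2, without mouse 3 and without the mouse term. The Aqp1 call was also lost with no filter. The endothelial list rose in the same samples, and its part in these 3 changes was not tested. Aqp8 and the other aquaporins were not compared in level, since probes differ in brightness.

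Among chloride and bicarbonate exchangers and pumps, no gene passed. Of 6 other chloride and bicarbonate exchangers tested, 0 passed, with a median of -0.24, although some alternatives gave a call in this list. Among them Slc26a2, a sulphate and anion exchanger of the colon, changed by -0.57 ± 0.16 (limma adjusted p = 0.0852), and Slc4a2, the basolateral chloride and bicarbonate exchanger, by -0.15 ± 0.09 (limma adjusted p = 0.329). Of 7 sodium pump subunits and their partners 0 passed, with a median of -0.175, and Atp1b1, the beta subunit of the sodium pump, changed by -0.11 ± 0.09 (limma adjusted p = 0.465). Of 7 sodium-proton exchangers and scaffolds, the endosomal exchanger Slc9a9 fell by 0.56 on the log2 scale (SE 0.10) and Pdzd3, a scaffold protein of the brush border, rose by 0.52 ± 0.11 (limma adjusted p = 0.0229 and 0.0364). Neither call held without mouse 2, without mouse 3 or without the mouse term. That of Slc9a9 was also lost without background correction and in the authors' processed values (-0.18, limma adjusted p = 0.0659), and that of Pdzd3 with median scaling and with no filter. Slc9a9 lay near background, with scanner intensities of 97.1 to 126.0 in polyp and 123.3 to 135.3 in surrounding samples. Its polyp sample of mouse 3 was not detected (detection p-value 0.06), so the size of its change is uncertain. Pdzk1 was detected on 1 array and not tested.

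Of 7 tested genes of sodium channel control and the aldosterone response, 2 fell and 0 rose, with a median of -0.34. Tsc22d3, a leucine zipper protein induced by corticosteroids and also abundant in lymphocytes, read 9.61, 9.62 and 9.31 in polyp and 10.42, 10.30 and 10.31 in surrounding samples. It was lower in each polyp sample, with no overlap. Its change was -0.83 ± 0.10 (SE, n = 3 pairs, limma adjusted p = 0.00843), which passed in all 13 alternatives. A second Tsc22d3 probe changed by -0.71 (limma adjusted p = 0.0191). Usp2, a deubiquitinase induced by aldosterone in the kidney, fell by 0.95 on the log2 scale (SE 0.14, limma adjusted p = 0.0151). The Usp2 call was lost without mouse 2, without mouse 3 and without the mouse term. Sgk1, the kinase through which aldosterone acts on the channel, changed by -0.34 ± 0.14 and did not pass (limma adjusted p = 0.189).

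Genes of secretion and of its control by guanylins moved in both directions. Guca2b, which encodes uroguanylin, the peptide hormone that opens Cftr through cyclic GMP, rose by 1.10 ± 0.16 (SE, n = 3 pairs, limma adjusted p = 0.0125). It read 8.62, 8.75 and 9.54 in polyp and 7.40, 8.08 and 8.13 in surrounding samples, with no overlap. Guca2a, which encodes guanylin, changed by -0.20 ± 0.09 (limma adjusted p = 0.211), and the receptor of both peptides, Gucy2c, by -0.01 ± 0.15 (limma adjusted p = 0.98). The cyclic GMP-dependent kinase Prkg2 rose by 0.54 ± 0.09 and the adenylate cyclase Adcy6 by 0.39 ± 0.09 (limma adjusted p = 0.0189 and 0.0444), so that 3 of 7 genes of this list rose. The Guca2b call was lost without mouse 3 and when the model had no mouse term. Those of Prkg2 and Adcy6 were lost in these settings too, and also with median scaling and without mouse 2. The groups overlapped for Adcy6, whose call was further lost with cyclic loess and without mouse 1.

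Of 10 tested genes of chloride secretion and potassium recycling, 1 fell and 1 rose. Clca1, a secreted goblet cell protein that stands in the goblet cell list too, fell by 1.34 on the log2 scale (SE 0.16, n = 3 pairs, limma adjusted p = 0.00801). Kcnn4, a calcium-activated potassium channel of epithelium and lymphocytes, rose by 0.41 ± 0.09 (limma adjusted p = 0.0458). That call was lost with cyclic loess, median scaling and no filter, without each mouse in turn and without the mouse term. Slc12a2, the cotransporter that loads chloride into secreting cells, changed by -0.15 ± 0.09 (limma adjusted p = 0.32). Of 6 genes of short-chain fatty acid transport, Slc16a9, a monocarboxylate carrier relative, fell by 0.65 on the log2 scale (SE 0.10) and Emb, a partner protein of such carriers, by 0.41 (SE 0.09; limma adjusted p = 0.0154 and 0.0431). Both calls were lost without mouse 2, without mouse 3 and without the mouse term, and that of Emb also with median scaling. Slc5a8, the sodium-coupled carrier of butyrate at the colonocyte surface, changed by -0.44 ± 0.11 and did not pass (limma adjusted p = 0.0531).

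**Figure D4:**
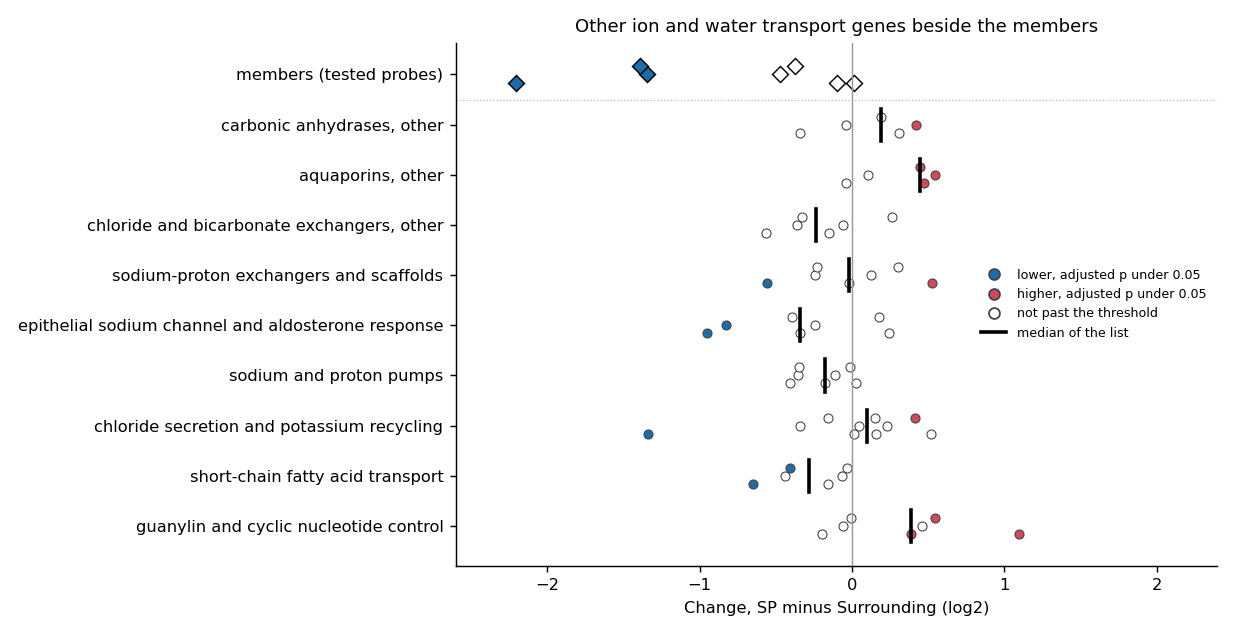
Change (SP minus Surrounding, log2) of the 60 other tested transport genes by list, with the 7 tested member probes as diamonds in the top line, bars at list medians, blue for lower and red for higher at an adjusted p under 0.05. The lowest of the other genes, Clca1 at -1.34, lies beside Aqp8 and to the right of Car4.

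The genes whose values over the 6 arrays followed those of Car4 most closely were H2-Eb2 (r = 0.991), Sectm1b (r = 0.987) and Trim11 (r = 0.985). H2-Eb2, an MHC class II gene, passed as lower (limma adjusted p = 0.00273). It was detected on 5 arrays, with its polyp values at or near background, so no exact change is given and its r rests in part on those values. Sectm1b changed by -1.14 ± 0.10 (limma adjusted p = 0.00357). Trim11 changed by -0.37 ± 0.09 and did not pass (limma adjusted p = 0.0531). For Aqp8 they were Acap1 (r = 0.999), Itm2a (r = 0.996) and the transcription factor Ets1 (r = 0.995). Acap1 changed by -1.22 ± 0.11 and Ets1 by -1.02 ± 0.10 (limma adjusted p = 0.00373 and 0.00419). Itm2a passed as lower (limma adjusted p = 0.00886) but was detected on only 4 arrays, with polyp values at or near background, so the same limits hold for it. For Car2, whose own change did not pass, they were Tbl1xr1 (r = 0.989), Selenbp2 (r = 0.983) and Ppp4r3a (r = 0.982), of which Selenbp2 changed by -0.61 ± 0.12 (limma adjusted p = 0.0307). These correlations are a description over 6 arrays of 3 mice, picked as the highest among all tested named genes, and the arrays share the difference between the groups.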

How the data were processed

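RNA of CD45-enriched cells from 3 polyp and 3 surrounding samples was labelled as biotin cRNA and read on an Illumina mouse reference BeadChip, per the labels' protocols. The deposited scanner table holds linear intensities and detection p-values for 25697 probes, per the file headers. The authors' processed intensities differed by at most 0.005 from a plain quantile normalisation of these. Tools listed in the submitters' processing notes were GenomeStudio and limma 3.14.4, with no roles given. All arrays were on 1 chip with a mouse's samples side by side, so mouse and place on the chip cannot be told apart. The polyp sample came first in every pair, so group and order within the pair cannot be told apart either.

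Scanner intensities were corrected with normexp (background from the detection p-values, offset 16), quantile normalised and put on the log2 scale in R 4.3.3 with limma 3.58.1. Probes detected on at least 3 arrays were tested, 13409 in all. The model had terms for mouse and group (lmFit, eBayes, two-sided, Benjamini-Hochberg over all tested probes, threshold 0.05), with 2 residual and 4.04 prior degrees of freedom. The model was also run on simulated data with independent probes, a simpler setting than these arrays, and no result here rests on that run. The design states the pairing, and deviations from group means correlated by 0.571, 0.564 and 0.614 within mice. The number of arrays limits precision. Probes were named from the platform annotation (23978 with 1 symbol, 0 with several, 1719 unnamed), and symbols were updated through RefSeq gene identifiers.

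Members and lists were chosen with earlier results of these data known. A listed gene was read by its brightest tested probe. Named were all members, up to 4 called genes of each list by size of change (or the 2 brightest where none passed), and the 3 genes most correlated with each of the 3 members that changed most; other list genes were named after their values were seen. Alternatives were the mouse term, background, offset, normalisation, authors' values, filters, prior, probe choice and leaving out each mouse.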

Additional observations from a re-analysis of the deposited data

Results flagged for a closer look

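Atp12a, not tested because its probe was detected on too few arrays, exceeded background on 1 array: the polyp of mouse 1 read 103.3 (scanner intensity, detection p-value 0.03), while the surrounding samples of mice 1 and 3 read 98.8 and 99.3, that of mouse 2 read 100, and none of these was detected. The polyp sample of mouse 2 had 106.6 at a detection p-value of 0.05 and that of mouse 3 had 88.1.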

How the results depend on the processing

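Over 13 alternatives the change of Car4 stayed between -2.51 and -1.67 and passed in each (limma adjusted p up to 0.0366). That of Aqp8 stayed between -1.49 and -1.21 on the first probe, which missed the threshold only without the replicate block (limma adjusted p = 0.0511), and between -1.51 and -1.24 on the second, which always passed. The number of member probes that changed was 2 without the replicate block, 3 without any 1 mouse and at most 4. Counts over many genes moved more. Without the replicate block 183 probes, 1 other transport gene and 5 marker genes changed, against 1399, 15 and 29. Leaving out 1 mouse gave 412 to 1927 probes, 2 to 18 other transport genes and 16 to 33 marker genes, with fewer pairs and residual degrees of freedom. Median scaling gave 8 other transport genes, and 1000 probes lower and 407 higher (28.9% rises, against 44.3%). Under it the limma adjusted p was 1.62e-34 for Car4 and 1.86e-12 and 3.34e-13 for the Aqp8 probes. These lie far below the values of every other setting, so calls under median scaling are not comparable with the rest. The cause of either difference was not tested. Signs turned for these changes, none of which had passed: the dim Car2 probe without mouse 3 (range when a mouse was left out, -0.2094 to 0.0715), Cftr under cyclic loess (-0.0378), median scaling (-0.0557) and without mouse 2 (-0.0194 to 0.038), Hba-a1 under cyclic loess (-0.0245) and without mice 2 and 3 (-0.22 to 0.426), and Alas2 under median scaling (-0.015) and without mouse 2 (-0.18 to 0.2323). The cause was not tested. Slc26a3, Atp12a and Slc4a4 were too close to background for a fold.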
